A study of Homo sapiens with 4 samples.

Results

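The downstream end of a transcript can lie at several places in the same gene, and the distal downstream stretch is the part of a gene that only its longest span covers. For each protein-coding gene whose span overlapped no other annotated gene, the longest annotated transcript span was paired with the longest other span that started within 500 bases of the same 5′ end and stopped at least 5000 bases short of its 3′ end. The bases between both 3′ ends are the stretch. Of 20046 protein-coding genes, 6619 overlapped no other gene, 2155 of these gave a pair, and 1230 pairs had at least 50 counts on the long span in each of the 4 libraries. The members were chosen by these counts, so genes that were silent in either state are not among them, and the level of the long span is no finding here. Pairs of all genes at the same threshold numbered 6138 and serve as the background.

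The libraries were Nanopore cDNA libraries of wild-type H1 human embryonic stem cells (hESCs), an established line. Naïve hESCs, derived from H1 primed hESCs, were kept in FINE culture, and primed hESCs in mTeSR. The labels name 50% confluency for the naïve and 60-70% for the primed cultures. There were 2 replicates (rep) per state. By the study's methods, naïve hESCs were kept at low and primed hESCs at normal oxygen. State, culture medium and oxygen cannot be told apart in this design. No source used here says whether the replicates were separate cultures, so the p-values measure the spread between these libraries only. The edgeR fits draw the spread of a pair or gene in part from the others tested with it. The 4 libraries held between 129276054 and 161548901 counts over all transcript spans. Of the primed markers listed, 8 of 8 were higher in primed hESCs, and 8 of 8 naïve markers were lower, beside 37.4% higher and 32.6% lower of 27632 genes. KLF17 fell in this comparison from 95.1 to 71.8 CPM only and was not lower with library sizes in place of TMM. The marker lists were chosen with earlier results of these data known, so they are no independent check of the labels. Of 8 trophoblast markers, 7 were lower in primed hESCs, with a summed level of 1811 and 2141 CPM in the naïve libraries against 4.31 and 3.32 CPM in the primed libraries, and CGA alone held 1548 and 1862 CPM in naïve rep1 and rep2. VGLL1 and XAGE2 were at 0 in both primed libraries. Shared pluripotency markers summed to between 414.8 and 638.7 CPM in all libraries, mesoderm and endoderm markers to between 1.87 and 4.70 CPM, and neural markers to between 1.91 and 13.4 CPM. The part of the cells behind the trophoblast markers in the results below was not tested.

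The 3′ end of a messenger RNA is made by cleavage and addition of a poly(A) tail, usually a short distance downstream of a signal hexamer, AATAAA or its common variant ATTAAA. A gene with several such sites can end its transcripts in an intron, which truncates the coding sequence, or at a nearer or farther place in the last exon, which leaves the protein as it is and changes the length of the 3′ untranslated region. Naïve and primed hESCs are pluripotent states that model earlier and later stages of the epiblast.

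The annotated ends themselves differed. Within the 30 bases before the 3′ end, sense strand only, AATAAA or ATTAAA lay in 67.9% of the 1224 long ends of members and in 16.5% of the 911 short ends that the annotation does not tag as not found, against 28.5% of 188211 ends of all annotated transcripts. The same letters on the antisense strand lay in 9.40%, 3.95% and 4.53% of these windows. The windows of 5 members, chosen from those with the largest differences of the distal share between the states, are printed here because they show what both ends of a pair look like. They are read from GRCh38 in the sense of the transcript, end at the annotated 3′ end, and carry the hexamers in capitals.
MYOF-204, short end, chr10:93397185-93397214, minus strand: cataaAATAAAcattggatattgtgaaaca
MYOF-202, long end, chr10:93306429-93306458, minus strand: atgaaactaAATAAAaatgtttcaccttta
RIMOC1-202, short end, chr5:41911150-41911179, plus strand: ctcttaagaaaatccagtttgcttaaaaag
RIMOC1-201, long end, chr5:41921607-41921636, plus strand: tttttaaaaaAATAAAaccatacaccccta
COL25A1-201, short end, chr4:108823876-108823905, minus strand: tggaaaAATAAAggatttttgaaaaaaaaa
COL25A1-208, long end, chr4:108808725-108808754, minus strand: gttataaagctttattgatgttcatgaaaa
APELA-204, short end, chr4:164879227-164879256, plus strand: tgtaggaaaatcttgataactgttgaatct
APELA-203, long end, chr4:164898936-164898965, plus strand: aaaaaAATAAAaactaacacccacgaaaaa
LRP2-201, short end, chr2:169240750-169240779, minus strand: gtgtttttacttctttttatgtctttgttt
LRP2-205, long end, chr2:169127109-169127138, minus strand: aaagttctAATAAAtgtgtattttatcaga
MYOF holds AATAAA at both ends, COL25A1 only at its short end, and the other 3 pairs only at their long ends. Of the other members with large differences, CPT1C, MTARC2 and CBFA2T2 held it only at the long end, and SNAPC4 and CBX2 held neither hexamer at either end. A match is a description of the letters, and an end without one may use other signals.

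The stretches ran from 5000 to 228531 bases, with a median of 10757, and the longest belonged to TBC1D32. The short 3′ end fell in an intron of the long transcript in 580 members, in an exon other than the last in 567, and in the last exon in 83. In 319 members the annotation tags the short end as not found, which means that the annotated transcript is incomplete there. In 723 members another annotated transcript of the gene starts inside the stretch, so counts there need not belong to transcripts that start at the shared 5′ end.

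The value of a stretch was the count on the long span minus the count on the short span, which is the number of alignments that touched the long span and not the short one. The distal share is this number as a percentage of the sum of the stretch and short span counts in the same library. A read of the long transcript that reaches back over the short span counts for the short span, and an alignment anywhere in the stretch counts for the stretch whether or not it reaches the distal 3′ end, so the distal share is not the share of transcripts that end there. It is taken within a library and needs no scaling between libraries. In bulk libraries, fewer cells of a kind and less RNA per cell cannot be told apart. Over the 1230 members, the median distal share was 15.9% and 17.2% in naïve hESCs (rep1 and rep2) and 19.3% and 22.8% in primed hESCs. Primed rep2 stood above primed rep1 by a median of 2.62 points, while naïve rep2 stood above naïve rep1 by 0.65 points.

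Of the members, 1159 passed the count filter of the test, 64 were left out for low counts in the stretch and 7 for low counts on the short span. A stretch or short span could pass through the libraries of a single state, which favours a call. In the edgeR quasi-likelihood test of the distal share, with Benjamini-Hochberg adjustment over 5539 pairs of all genes, 178 members were higher in primed hESCs and 37 were lower, at an adjusted p under 0.05 and a difference beyond 10 percentage points. These are 15.4% and 3.19% of the tested members, beside 18.7% and 5.61% of all pairs. The members therefore did not stand above the background in either direction. Among the tested members 845 had a higher mean distal share in primed hESCs, beside 3910 of 5539 pairs. The median difference was 2.83 points, beside 3.02 points over all pairs. Read length and RNA integrity bear on how far a read reaches back over the short span. Whether they differed between the libraries was not tested. All 178 higher members and 36 of 37 lower members had no overlap between the libraries of both states, which the selection by the test favours. Over all tested members, both primed libraries lay above both naïve ones in 554 and below them in 141, beside 2805 and 934 of 5539 pairs. Both the primed and the naïve libraries weigh on these counts. Without primed rep1 there were 216 higher and 21 lower members and a median difference of 4.26 points, and without primed rep2 there were 130 and 44 and a median of 1.51 points. Without naïve rep2 there were 133 higher and 21 lower members.

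**Figure D1:**
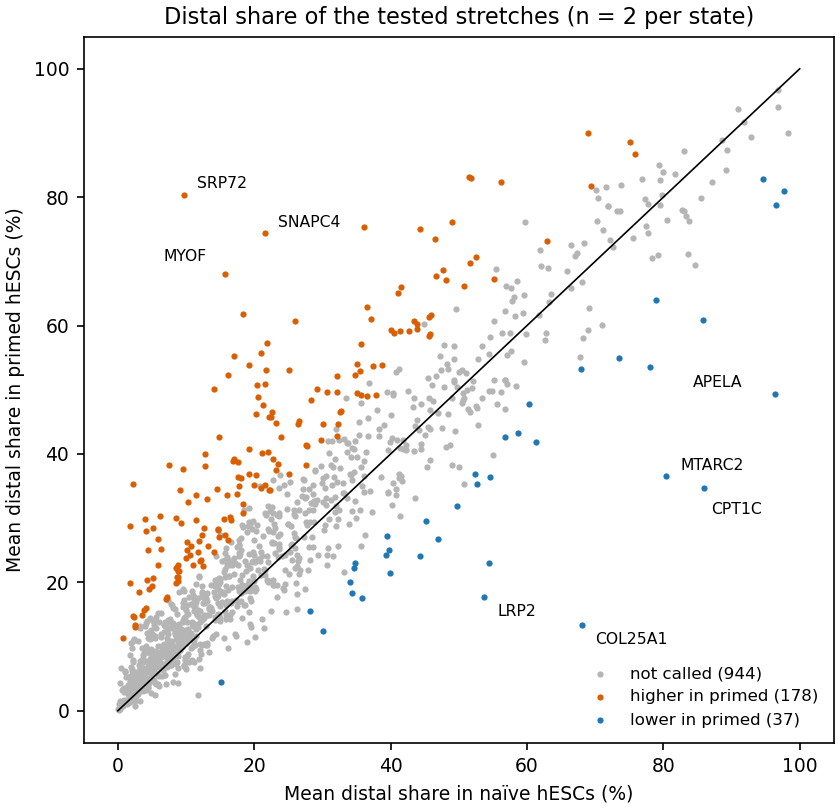
Mean distal share of the 1159 tested stretches in primed hESCs (vertical axis, %) against naïve hESCs (horizontal axis, %), with 1 point per member, the line of equal shares, and colours for the 178 members higher and 37 lower in primed hESCs. SRP72, SNAPC4 and MYOF lie farthest above the line, and COL25A1, CPT1C and APELA farthest below it.

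The member with the largest rise was SRP72, which encodes a subunit of the signal recognition particle that brings nascent secretory proteins to the endoplasmic reticulum. Its stretch, chr4:56489402-56503681 on the plus strand, held 128 and 171 counts in naïve rep1 and rep2 and 2056 and 13094 in primed rep1 and rep2. Its short span held 1256 and 1529 counts against 968 and 1015. The annotation tags the short end of this pair as not found, as it does for PKP3 and HNRNPC below. The 2 primed libraries differed far more from each other than the naïve libraries did. The distal share was 9.65% ± 0.57 (SD, n = 2) in naïve and 80.4% ± 17.6 (SD, n = 2) in primed hESCs, with an edgeR adjusted p of 1.67e-78 and a DESeq2 adjusted p of 0.000157. Without primed rep2 the difference was 58.3 points. The retained-intron span SRP72-203, which lies wholly inside the stretch, held 265 and 318 counts in naïve hESCs against 2231 and 13368 in primed hESCs, so most of the primed alignments of the stretch overlapped this span.

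MYOF encodes myoferlin, a calcium-binding membrane protein of the ferlin family. Its stretch of 90756 bases, chr10:93306429-93397184 on the minus strand, holds 39 of the 54 exons of the long transcript. It held 173 and 228 counts in naïve and 65 and 78 in primed hESCs, while the short span held 1000 and 1141 against 32 and 35. Both fell, the stretch by 1.79 and the short span by 5.30 on the log2 scale, so the distal share rose from 15.7% ± 1.3 to 68.0% ± 1.4 (SD, n = 2 each; edgeR adjusted p = 1.47e-22) although the gene was lower in primed hESCs.

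SNAPC4 encodes a subunit of the complex that starts transcription of small nuclear RNA genes. Its stretch of 15449 bases held 12, 19, 40 and 71 counts in naïve rep1, naïve rep2, primed rep1 and primed rep2. Its short span held 50, 61, 18 and 18. The stretch rose by a log2 fold change of 1.53 and the short span fell by 1.92, so the pair moved apart in both parts (edgeR adjusted p of the share 1.72e-10).

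RIMOC1 encodes a partner of the complex that activates the late endosomal GTPase RAB7A. Its stretch, chr5:41911180-41921636, held 57 and 66 counts in naïve and 316 and 315 in primed hESCs. The short span held 97 to 122 counts in the 4 libraries, with overlap between the states. The distal share rose from 36.1% ± 1.3 to 75.4% ± 0.5 (SD, n = 2 each; edgeR adjusted p = 6.27e-12).

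CBX2 encodes a chromodomain subunit of the Polycomb repressive complex PRC1. The last exon of its long transcript, with 1308 of the 1596 coding bases, lies in the stretch of 5451 bases, and the short transcript CBX2-201 ends in the intron before it. The stretch held 34 and 17 counts in naïve and 106 and 132 in primed hESCs, and the short span 126 and 115 against 107 and 85. The distal share rose from 17.1% ± 5.9 to 55.3% ± 7.8 (SD, n = 2 each; edgeR adjusted p = 3.57e-10).

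RPAP2, a phosphatase of the RNA polymerase II tail, and SHLD1, a subunit of the shieldin complex of DNA end protection, resembled RIMOC1 in that the stretch rose while the short span was not called. The RPAP2 stretch held 24, 39, 196 and 244 counts in naïve rep1, naïve rep2, primed rep1 and primed rep2, with 187, 192, 195 and 242 on the short span. The SHLD1 stretch held 19, 18, 81 and 91 counts, with 86, 70, 65 and 83 on the short span. In OTULIN, the deubiquitinase of linear ubiquitin chains, the short span fell from 67 and 85 counts to 26 and 25, while the stretch held 26 and 27 against 41 and 38. The OTULIN call was lost with 5′ ends within 50 bases or a stretch of at least 10000 bases, which pair the gene differently (difference 10.7 points, edgeR adjusted p of 0.14 and 0.139). Of the others among the 12 largest rises, ZNF639 is described with the last-exon pairs, and NBPF1, C6orf132 and CDCP1, a membrane protein with CUB domains, rose by 36.1, 35.5 and 34.7 points. NBPF1 has near-identical copies in the genome, as do RGPD5, RGPD6 and RGPD8 among the called members, and reads aligning at several places were counted at each, so these values are uncertain.

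The largest fall was that of COL25A1, a membrane collagen. Its stretch, chr4:108808725-108823875 on the minus strand, held 41 and 51 counts in naïve and 22 and 31 in primed hESCs, whereas the short span held 20 and 23 against 148 and 195. The short span rose by a log2 fold change of 2.68 and the distal share fell from 68.1% ± 1.2 to 13.3% ± 0.5 (SD, n = 2 each; edgeR adjusted p = 5.20e-16). The stretch fell by 1.10 on the log2 scale. In CPT1C, the carnitine palmitoyltransferase of neurons, the short span rose and the stretch was not called. Its stretch held 92 and 80 counts in naïve and 56 and 65 in primed hESCs, and its short span rose from 15 and 13 to 121 and 107 counts. The span CPT1C-208, which lies wholly inside the stretch, held 93 and 81 counts in naïve and 130 and 123 in primed hESCs. Raw counts over that span were thus higher in both primed libraries. The distal share was 86.0% ± 0.03 in naïve and 34.7% ± 4.4 in primed hESCs (SD, n = 2 each; edgeR adjusted p = 7.75e-15).

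APELA encodes the secreted peptide ELABELA, a ligand of the apelin receptor that hESCs make. Its stretch, chr4:164879257-164898965 on the plus strand, held 8468 and 8515 counts in naïve and 606 and 734 in primed hESCs, while the short span held 287 and 353 against 725 and 643. The stretch fell by 3.98 on the log2 scale and the distal share fell from 96.4% ± 0.5 to 49.4% ± 5.5 (SD, n = 2 each; edgeR adjusted p = 1.23e-63). The annotated spans at the distal end went the other way. APELA-201 and APELA-205, which start inside the stretch at 164895522 and 164896464 and run to or near its end, held 244 and 292, and 232 and 280 counts in naïve hESCs, against 923 and 873, and 888 and 827 in primed hESCs. Most naïve alignments of the stretch thus lay between the short end and the start of APELA-201, and the counts over the distal end itself were higher in both primed libraries.

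LRP2, the endocytic receptor megalin, fell in both parts and more in the stretch, while in CBFA2T2, a transcriptional corepressor of the ETO family, the stretch fell and the short span was not called. The LRP2 stretch of 113641 bases held 159 and 217 counts in naïve and 18 and 24 in primed hESCs, and its short span 144 and 178 against 93 and 101. The CBFA2T2 stretch held 658 and 874 counts against 98 and 171, and its short span 596 and 679 against 409 and 470. Of the spans inside the CBFA2T2 stretch, CBFA2T2-208 held 89 and 184 counts in naïve and 71 and 89 in primed hESCs, and CBFA2T2-210 held 80 and 98 against 52 and 81, so most naïve counts of that stretch lay outside both. LRP2-207, which covers the distal part of the LRP2 stretch, held 97 and 149 against 12 and 13. Their distal shares fell by 36.0 and 31.4 points (edgeR adjusted p of 3.31e-09 and 8.28e-12).

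MTARC2, a mitochondrial reductase, fell by 43.9 points, from 80.5% ± 7.1 to 36.5% ± 0.4 (SD, n = 2 each; edgeR adjusted p = 1.13e-06), on 46, 53, 21 and 21 counts in the stretch. The remaining 6 of the 12 largest falls were smaller, and each lost its call when a library was left out. SOCS7 is described with the last-exon pairs. PKP3, a desmosomal plakophilin, was at -24.9 points and lost its call without primed rep1 (-14.9 points, edgeR adjusted p = 0.0658). HGSNAT, a lysosomal acetyltransferase, was at -24.5 points and lost it without primed rep1 (adjusted p = 0.0928) and with DESeq2 (0.0645). CDK16, a cyclin-dependent kinase, was at -20.2 points and lost it without naïve rep1 (-14.3 points, adjusted p = 0.0681). KMT5A, the histone H4 lysine methyltransferase, was at -19.6 points and lost it without naïve rep2, without primed rep2 and with DESeq2 (adjusted p of 0.0898, 0.0676 and 0.0953). MTMR1, a phosphoinositide phosphatase, was at -18.6 points and lost it without naïve rep1, primed rep1 or primed rep2 and with DESeq2 (adjusted p of 0.391, 0.0756, 0.0727 and 0.185).

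**Figure D2:**
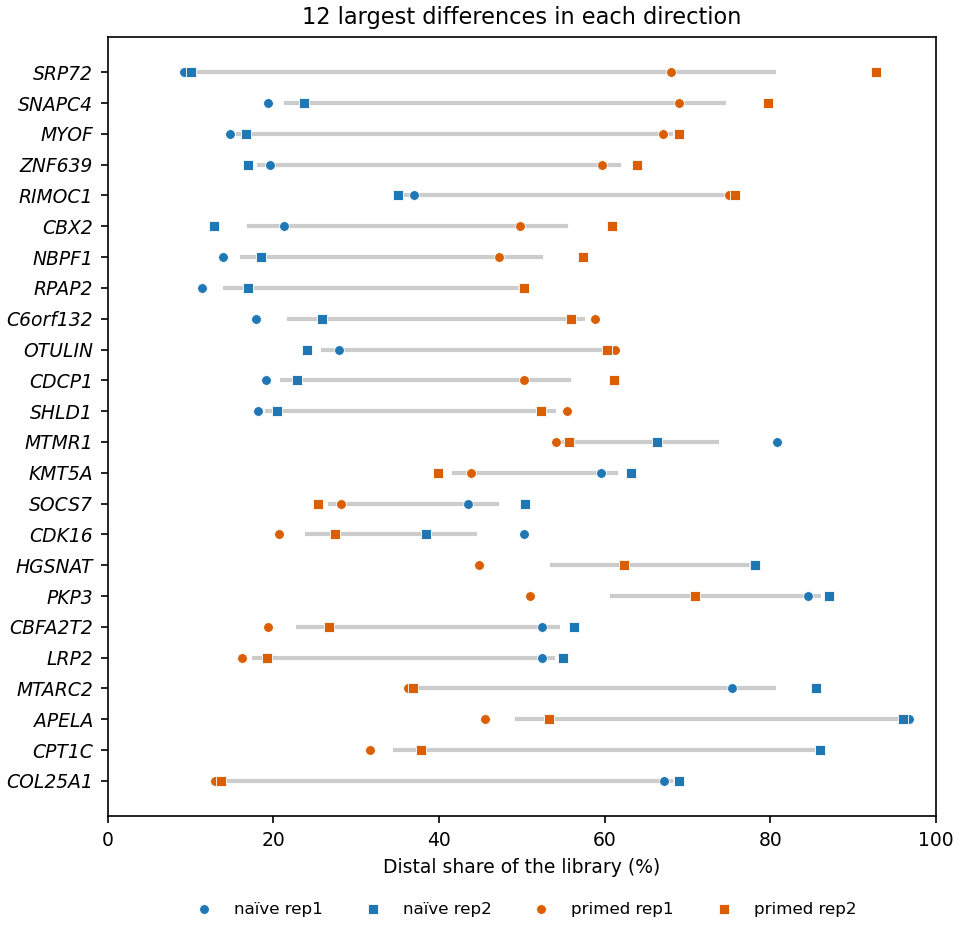
Distal share (horizontal axis, %) of the 12 members with the largest differences in each direction, with 1 symbol per library and a grey bar between the means of the states. By the selection, the naïve and primed symbols of a member do not overlap, and the gap between the 2 primed symbols is widest in SRP72, PKP3 and HGSNAT.

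A distal share can move with the stretch, the short span or both, so both were tested as levels with TMM scaling. Over the tested members, the stretch level was higher in primed hESCs in 223 and lower in 163 (edgeR adjusted p under 0.05 and a log2 fold change beyond 1), beside 24.1% and 12.5% of all pairs. The short span level was higher in 96 and lower in 246, beside 11.5% and 18.6% of all pairs. The median log2 fold change was 0.01 for the stretches and -0.35 for the short spans. These splits depend on the scaling. With library sizes in place of TMM, the median over all genes moved from 0.08 to 0.72, and the members' counts became 420 higher and 46 lower for the stretch and 232 and 83 for the short span. The medians were then 0.64 for the stretches and 0.28 for the short spans.

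Among the 178 members with a higher distal share, 63 had a higher stretch level with no call on the short span, 45 had a lower short span level with no call on the stretch, 8 had both, 11 had both parts higher, 8 had both lower, and 43 had no call in either. Among the 37 with a lower distal share, 13 had a lower stretch level alone, 10 a higher short span level alone and 2 had both, 3 had both parts higher, 2 had both lower, and 7 had neither. Among the 944 uncalled members, 79 had a higher stretch level alone, 74 a lower short span level alone and 2 had both. A lower stretch level alone was seen in 31 of them and a higher short span level alone in 13. These splits rest on TMM scaling and were not repeated with library sizes.

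**Figure D3:**
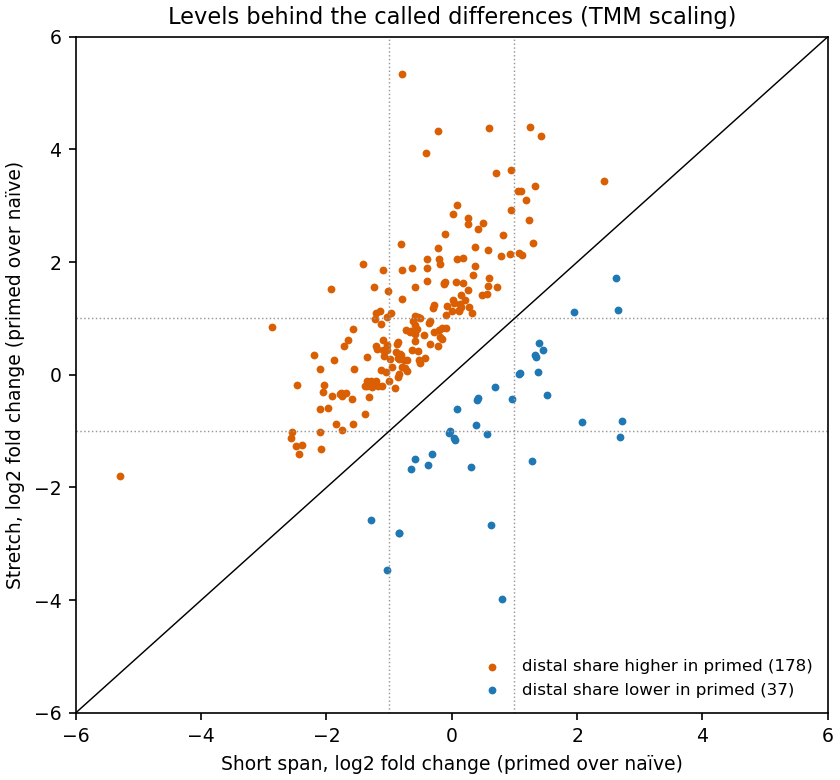
Log2 fold change of primed over naïve hESCs of the stretch (vertical axis) against that of the short span (horizontal axis), with TMM scaling, for the 178 members with a higher and the 37 with a lower distal share. Dotted lines mark a log2 fold change of 1 in either direction. By the selection on the share, the former lie above the diagonal and the latter below it.

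The 83 members whose short end lies in the last exon of the long transcript are called tandem pairs here. The class rests on the place of the short end alone, and whether both transcripts share their splice sites before it was not tested. Of these, 70 were tested, with stretches of 5017 to 13037 bases, and 57 of the 70 stretches hold no coding base. The distal share was higher in primed hESCs in 27 and lower in 1, SOCS7, and 65 of the 70 differences were above 0. The median difference was 6.53 points, and over the 297 tandem pairs of all genes, 96 were higher and 4 lower with a median of 6.23 points. For members with the short end in an intron, 81 of 537 were higher and 17 lower (15.1% and 3.17%, beside 19.5% and 6.73% of 3018 pairs of all genes) with a median of 2.66 points, and with the short end in another exon, 70 of 552 were higher and 19 lower (12.7% and 3.44%, beside 15.7% and 4.68% of 2224) with a median of 2.63 points. The difference between these classes was not tested. In 10 of the 70, among them ZNF639, GJC1 and SC5D, the short end is tagged as not found, and the other 60 had 22 higher and 1 lower with a median of 6.23 points, beside 81 and 4 of 265 such pairs of all genes. The stretch holds 1043 of the 1455 coding bases in ZNF639, 877 of 1188 in GJC1 and 385 of 897 in SC5D. In these genes the stretch is thus not 3′ untranslated region alone. Leaving out pairs with an annotated start in the stretch kept 68 tandem members with 26 higher and 1 lower. Of the 27 higher tandem members, the stretch level was higher in 18 and the short span level lower in 6. These counts were 37 and 12 over the 70 tested tandem members, and 155 and 44 over the 297 tandem pairs of all genes.

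**Figure D4:**
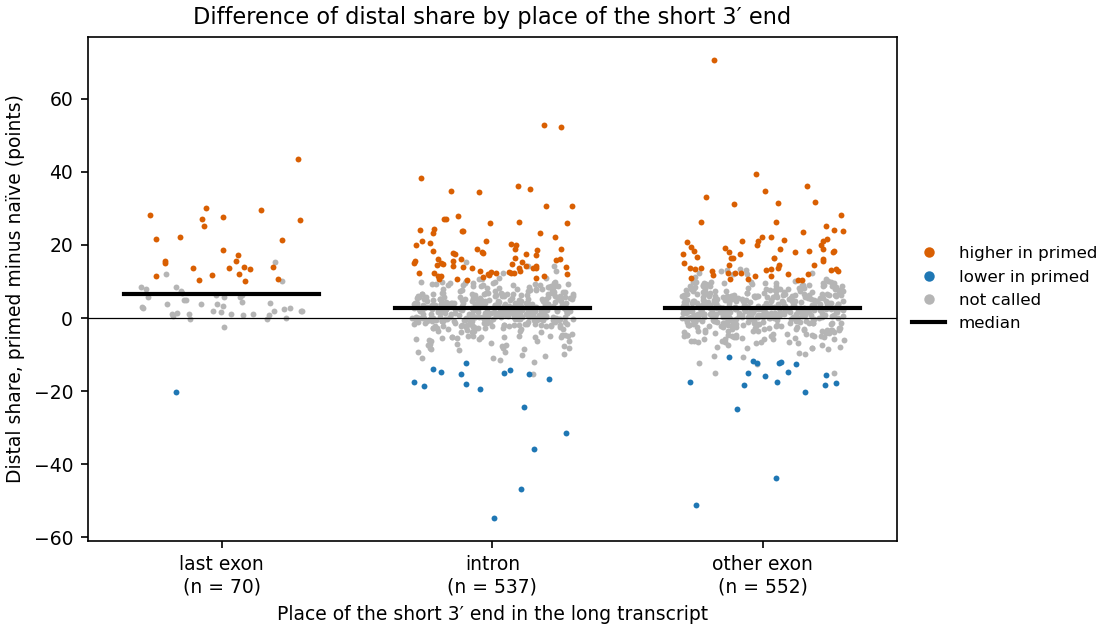
Difference of the distal share, primed minus naïve hESCs (vertical axis, percentage points), for tested members by the place of the short 3′ end in the long transcript, with 1 point per member and a bar at the median. In the last exon, 65 of 70 points lie above 0 and the median is 6.53, against 2.66 for introns and 2.63 for other exons.

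Both ends of 3 tandem pairs are printed because their shares rose and their stretches hold few or no coding bases (72 in NSL1 and 0 in the others). The windows are again the 30 bases before the annotated end, GRCh38, with hexamers in capitals.
NSL1-201, short end, chr1:212738483-212738512, minus strand: tccaggaaaacctctgacatggtactgaaa
NSL1-202, long end, chr1:212726153-212726182, minus strand: ctAATAAAatcgaatatatatttagatcta
BBX-207, short end, chr3:107805569-107805598, plus strand: tgttgccccacacggcccagattcacttga
BBX-206, long end, chr3:107811295-107811324, plus strand: aatactAATAAAagtaagatatttcaacta
YIPF4-202, short end, chr2:32305837-32305866, plus strand: tgtttgattctccatattccagtgAATAAA
YIPF4-201, long end, chr2:32316565-32316594, plus strand: actaaaattAATAAAttgtgtaaattctaa
All 3 long windows hold a hexamer, and YIPF4 holds one at the short end too. Over all tandem members, a hexamer lay in 78.3% of 83 long ends and 27.4% of 73 short ends.

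With the threshold of 10 points, the tandem calls that held in every alternative fit that tested them, including those with a library left out, were those of ZNF639, ZKSCAN1, GJC1, NSL1, BBX, SC5D, SPRING1, NUDT16, YIPF4, GK5 and STXBP4, 11 of 28. NSL1 encodes a kinetochore protein of the MIS12 complex. Its stretch, chr1:212726153-212738482, held 32 and 43 counts in naïve and 276 and 361 in primed hESCs, and the short span 362 and 347 against 565 and 489. The distal share rose from 9.57% ± 2.05 to 37.6% ± 6.8 (SD, n = 2 each; edgeR adjusted p = 9.72e-14).

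BBX, an HMG-box protein, held 115 and 176 counts in its stretch in naïve and 558 and 585 in primed hESCs, with 693 and 958 against 684 and 869 on the short span. Its naïve and primed short span counts overlapped, and the share rose by 27.7 points (edgeR adjusted p = 3.10e-13). The zinc finger genes ZNF639 and ZKSCAN1 held 11 and 10 against 96 and 94, and 23 and 37 against 276 and 288 counts in the stretch, with 45 and 49 against 65 and 53, and 115 and 116 against 270 and 279 on the short span. Their shares rose by 43.5 and 30.3 points. SC5D, a desaturase of cholesterol synthesis, held 37 and 47 stretch counts in naïve and 405 and 592 in primed hESCs, and 271 and 302 against 759 and 720 on the short span, with a rise of 27.2 points. GJC1, a connexin, held 34 and 36 against 341 and 408, and 135 and 121 against 338 and 381 on the short span, with a rise of 29.4 points. In these 5 genes the stretch level rose, by log2 fold changes of 1.67 (BBX), 2.86 (ZNF639), 2.93 (ZKSCAN1), 3.26 (SC5D) and 3.11 (GJC1). The short span level rose too in SC5D (1.06) and GJC1 (1.18), and in ZKSCAN1 its log2 fold change was 0.94.

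In SPRING1, NUDT16 and YIPF4 the short span fell instead. YIPF4, a Golgi membrane protein, held 647 and 664 counts on the short span in naïve and 264 and 287 in primed hESCs, with 116 and 151 against 165 and 187 in the stretch. NUDT16, a nudix hydrolase, held 178 and 259 short span counts in naïve and 86 and 94 in primed hESCs, with 20 and 23 against 49 and 45 in the stretch. SPRING1, which is needed for SREBP activity in sterol metabolism, held 127 and 136 against 60 and 68 on the short span, and 126 and 104 against 184 and 172 in the stretch. Their short span levels fell by 1.56, 1.58 and 1.35 on the log2 scale. The distal shares of YIPF4 and NUDT16 rose by 22.1 and 25.2 points, and that of SPRING1 from 46.6% ± 4.6 to 73.5% ± 2.6 (SD, n = 2 each). GK5, a glycerol kinase, and STXBP4, a syntaxin-binding protein, rose by 21.6 and 15.6 points. The STXBP4 stretch held 2 and 5 counts in naïve and 44 and 41 in primed hESCs. It passed the count filter through the primed libraries alone. So did the stretch of CEP78, another higher tandem member, with 0 and 2 against 28 and 29 counts. The filter thus favoured a rise in both.

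QKI, an RNA-binding protein that regulates splicing, had the highest stretch counts of the called tandem members, with 669 and 782 in the stretch in naïve against 694 and 669 in primed hESCs, and 710 and 1050 against 387 and 477 on the short span. Its share rose from 45.6% ± 4.1 to 61.3% ± 4.1 (SD, n = 2 each; edgeR adjusted p = 0.00154), and the call was lost without naïve rep2 (12.8 points, adjusted p = 0.103). SOCS7, a member of the family of suppressors of cytokine signalling, was the tandem member that fell. Its stretch held 30 and 60 counts in naïve and 55 and 60 in primed hESCs, and its short span rose from 39 and 59 to 140 and 176 counts. The share fell by 20.1 points (edgeR adjusted p = 0.00344), and the call was lost without naïve rep2 (adjusted p = 0.127) and with DESeq2 (0.0539).

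Other annotated ends between both ends of a pair show where along the gene the counts were gained. In APELA, 3.28% and 3.98% of the long span count lay on the short span in naïve rep1 and rep2, and 54.5% and 46.7% in primed rep1 and rep2, and the next end, that of APELA-202, had reached at least 96.7% in all 4 libraries. As given above, the naïve counts between these ends lay mostly before APELA-201. In CPT1C the naïve share of the count reached 14.02% and 13.98% at 14854 bases from the 5′ end and 40.2% and 39.8% at 19955 bases, so most naïve counts were gained over the last 2666 bases. The primed libraries had reached 90.4% and 86.6% there. In QKI the counts on the ends at 149992, 155427 and 156029 bases differed little within a library, and the rest was gained over the last 7845 bases. In NSL1 likewise, the counts on the ends at 53215 and 53294 bases were nearly the same, and the primed libraries gained 32.8% and 42.5% after them.

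**Figure D5:**
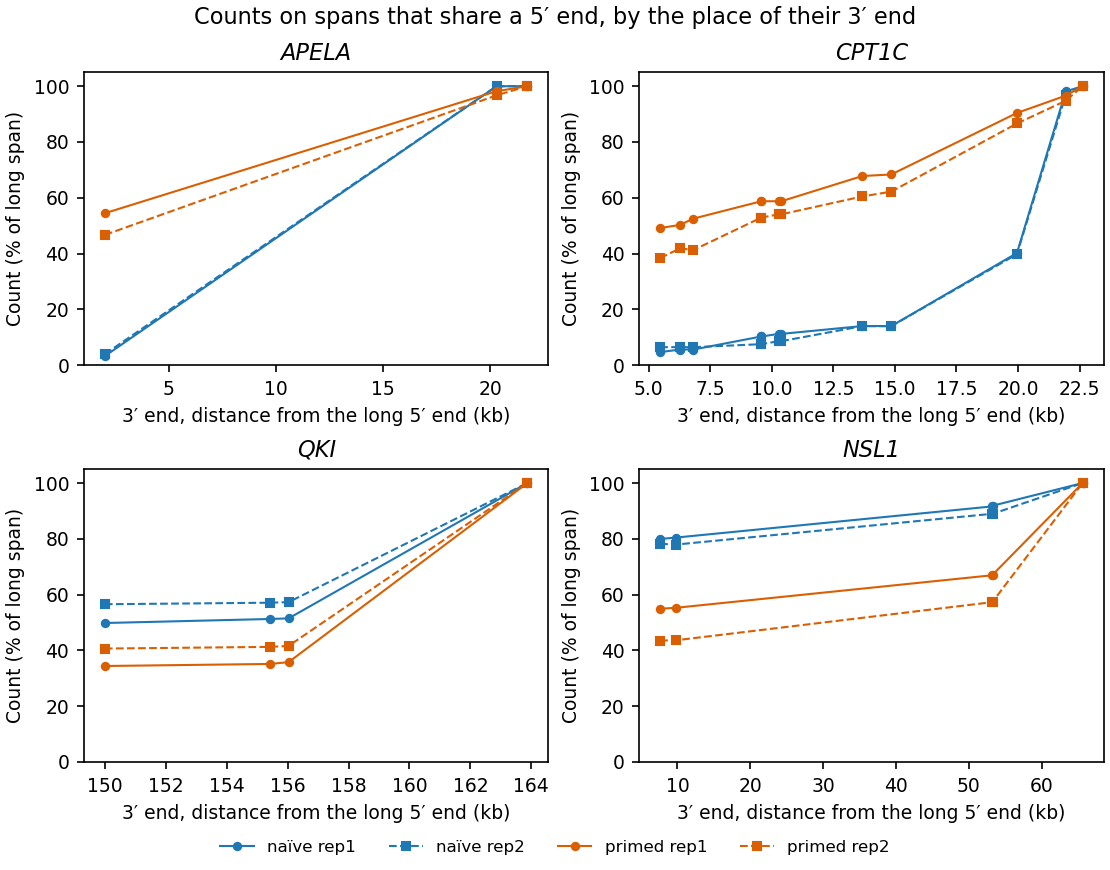
Count on spans of APELA, CPT1C, QKI and NSL1 that share the 5′ end of the long transcript (vertical axis, % of the long span count in the library) by the place of their 3′ end (horizontal axis, kb from the 5′ end), with 1 line per library. At the short ends that define the pairs, the naïve lines lie below the primed lines in APELA and CPT1C and above them in QKI and NSL1, and near the long end the lines of APELA and CPT1C cross.

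The called members differed in some features that the test did not use, given here as descriptions. The median stretch length was 16610 bases in the higher, 15150 in the lower and 10460 in the uncalled members. Of 201 tested members with stretches of at least 30000 bases, 57 were higher (28.4%) and 7 lower, beside 446 (28.4%) and 113 of 1573 pairs of all genes. Of the 109 members with a mean long span count of at least 1500, 4 were higher and 4 lower (3.67% each), beside 37 (6.13%) and 22 (3.64%) of 604 pairs of all genes. The long transcript was the MANE transcript, the reference transcript agreed for the gene by Ensembl and RefSeq, in 72.5% of the higher, 59.5% of the lower and 64.8% of the uncalled members. A hexamer lay before 26.1% of 138 short ends of higher members, 2 of 25 short ends of lower members and 13.4% of 687 of uncalled members, and before 71.4%, 72.2% and 68.3% of their long ends. The median GC content of the stretch was 41.1%, 50.2% and 42.8% in the same order, leaving out chromosome 8. Of 36 tested members with zinc finger symbols, a group chosen after values were seen, 8 were higher and none lower, beside 47 higher and 11 lower of 189 such pairs of all genes.

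The 6 members with the largest mean stretch count were C5orf22, HNRNPC, APELA, SRP72, LSM4 and PARP1. The C5orf22 stretch, chr5:31545715-31555053, held 10175 counts in rep1 and 5170 in rep2 of the naïve state, and 10417 and 5120 in those of the primed state, so it differed between the replicate numbers and not between the states. Its counts of the short span were 171, 262, 228 and 234, and most of the stretch counts lay within the last 3659 bases, after the end of C5orf22-208. HNRNPC, an abundant nuclear RNA-binding protein, held 5361, 6494, 2914 and 4057 counts in the stretch, and both parts fell, the stretch by 1.07 and the short span by 1.17 on the log2 scale, with a distal share of 28.1% and 29.4% in naïve and primed hESCs. PARP1, the DNA damage sensor, held 1324, 2397, 2172 and 2033 counts, which overlap between the states. LSM4, a subunit of the ring that binds U6 RNA, held 2450, 2904, 1654 and 2706, and its distal share of 60.3% in naïve and 47.9% in primed hESCs passed the test (edgeR adjusted p = 0.0147) but not without primed rep1 (-5.58 points, adjusted p = 0.308), without naïve rep2 (-9.81 points, 0.23) or with DESeq2 (0.0899).

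A list of 33 genes of 3′ end processing was tested at the gene level. It also holds RNA-binding proteins and kinases that neither cleave nor polyadenylate RNA. Of the list, 7 were higher and 16 lower in primed hESCs (edgeR adjusted p under 0.05), beside 37.4% and 32.6% of 27632 genes. The split depends on the scaling, with 15 higher and 6 lower for library sizes. PAPOLA, the canonical poly(A) polymerase, held 9099 and 11429 counts in naïve and 1606 and 1602 in primed hESCs and fell by 2.98 on the log2 scale. PCF11, a cleavage and termination factor, rose from 46 and 68 to 271 and 269 counts (log2 fold change 1.94). CPSF6, a subunit of the CFIm complex, rose from 349 and 386 to 884 and 1180 counts (1.18). These 3 kept their direction and their call under library sizes too. CSTF1 rose as well (1.18), while CSTF2, SSU72, PPP1CB and SNRPC, a U1 snRNP protein, fell by 1.02, 1.41, 1.60 and 1.34, of which CSTF2 was no longer called with library sizes (-0.38). These gene levels are counts on the whole span of an isoform, introns included, with reads aligning at several places counted at each. Genes of the list were not required to be free of overlap with other genes. Their counts therefore need not all come from the factor's own transcripts. The level of a factor was not tested against the distal shares.

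CSTF1, a subunit of the cleavage stimulation factor, is itself a member. Its stretch, chr20:56399358-56406362, held 38 and 37 counts in naïve and 178 and 223 in primed hESCs, with 149 and 131 against 328 and 271 on the short span. The distal share rose from 21.2% ± 1.2 to 40.2% ± 7.0 (SD, n = 2 each; edgeR adjusted p = 0.000428). CPSF2, CPSF3 and SNRNP70 of the list are members too, with differences of 4.85, 6.14 and 4.02 points that were not called.

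The threshold of 50 counts left 61 pairs with 40 to 49 counts in the lowest library just outside and 46 with 50 to 59 just inside. The pairs next to it were SIDT2 and SYK at 49 counts and AGFG2 and ANKRD13D at 50. The stretch of SIDT2 held 15, 22, 21 and 25 counts in naïve rep1, naïve rep2, primed rep1 and primed rep2, and that of SYK 37, 29, 22 and 34. The stretch of AGFG2 held 6, 5, 11 and 17 counts, and that of ANKRD13D 62, 80, 45 and 32.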

How the data were processed

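Nanopore cDNA of naïve and primed hESCs was measured in 4 libraries, 2 per state. Per the file headers and labels, the authors aligned the reads to GRCh38 with minimap2 and deposited raw counts, made with featureCounts 2.0.0 on Ensembl release 105 transcript spans, unstranded, with introns, and with every alignment of a read counted on each span it overlapped. Genes, exons and tags came from GENCODE release 44, in which 242542 of 244825 transcripts were matched, 97.9% of them at the same position, and the 2283 others held 1% of the counts. The members and lists were chosen with earlier results of these data known. Negative stretch counts, in 2 members, were set to 0.

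The distal share was fitted with edgeR 4.0.16 (R 4.3.3; library, kind of count, and kind by state, with stretch and short span each at 10 or more counts in at least 2 libraries). Levels and genes were fitted with the state as the term and TMM scaling of gene counts, with each gene counted by its isoform of largest mean. Tests were two-sided. The genes named were up to 12 called members with the largest differences in each direction and separate libraries, the 6 with the largest stretch counts, those at the threshold, and list genes; tandem members were named as a class and after their values were seen. Sequences were read with pysam 0.24.0. Only some of the windows read are printed. Tested on simulated counts, the edgeR share fit recovered 93% of 200 pairs changed 4-fold and called 5 of 5339 unchanged pairs. These counts were independent, with a fixed dispersion, and pairs of low stretch counts were not among those changed. The adjusted p was scored without the threshold of 10 points. These rates therefore need not hold for the calls on the data. Where a library has no count, up to 3 counts remain possible. In the CPM used here, which rest on TMM-scaled gene counts, 3 counts are 0.1299 and 0.1175 CPM in naïve rep1 and rep2. They are 0.1018 and 0.0978 CPM in primed rep1 and rep2. Such limits cover counting error only. DESeq2 1.42.0, other filters, pairings, thresholds and scalings, the replicate number as a block, and each library left out were tried as alternatives.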

Additional observations from a re-analysis of the deposited data

How the results depend on the processing

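The number of members with a higher distal share, 178, became 295 with no threshold on the difference and 62 beyond 20 points, and ranged from 123 to 216 with a library left out. The number with a lower share, 37, became 23 with 5′ ends within 50 bases, 17 with DESeq2 and 10 beyond 20 points, and ranged from 21 to 44 with a library left out. The fit with 5′ ends within 50 bases tested fewer members (844), and for the others the cause was not tested. The 27 higher tandem members became 45 and 11 with these thresholds and 18 to 24 with a library left out. The higher stretch levels became 136 with a filter of 50 counts, which tests fewer pairs, and 420 with library sizes, and the lower ones 46 with library sizes and 293 with no threshold on the fold change. The higher short spans became 63 with 5′ ends within 50 bases, 232 with library sizes and 208 without the threshold, and the lower ones 83 and 532 with the latter 2. With library sizes, 15524 genes were higher and 4511 lower, against 10327 and 9007, and 15 and 6 of the 3′ end factors, against 7 and 16. The differences of C5orf22, HNRNPC and PARP1, near 0 and not called, changed sign. C5orf22 went from -0.02 to 0.12 with a stretch of at least 10000 bases and ranged from -1.60 (without naïve rep2) to 1.57 (without naïve rep1), with 1.10 without primed rep2. HNRNPC ranged from -2.70 (without primed rep2) to 5.27 (without primed rep1), with -0.96 without naïve rep1, and PARP1 from -10.6 (without naïve rep1) to 1.27 (without naïve rep2). With a library left out, the lone library of a state is assumed to vary like the others.

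With the replicate number as a block, 181 members were higher and 39 lower. The differences between replicates of the naïve and the primed state correlated by 0.03 over genes and 0.02 over members' shares. Counting noise at low counts lowers such correlations, so they cannot exclude a pairing by replicate number. The C5orf22 stretch did differ by replicate number in both states. Of the 24 largest differences, 17 kept their call in every alternative fit that tested them, at the threshold of 10 points, and none changed sign. Stretches of low counts limit the precision: with both parts at 50 or more counts, 725 members were tested, and 143 were higher and 29 lower.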
